A study of Homo sapiens with 8 samples.

Results

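The genes described here encode 10 proteins known as target antigens of membranous nephropathy: PLA2R1, THSD7A, NELL1, PCDH7, HTRA1, NTNG1, EXT1, EXT2, CNTN1 and NCAM1. They were chosen by name, and all 10 were found among the 60564 genes of the count table by their Ensembl identifiers. Their RNA was sequenced in AB8/13, an immortalised line of human podocytes grown at 33 °C and then held at 37 °C for 5 days to differentiate. ATOH8, a transcription factor of the basic helix-loop-helix class, was knocked down by transfected shRNA in 4 libraries, and 4 control libraries came from cells given a non-targeting shRNA. The replicates are called biological, without saying that each was a culture of its own, so p-values here cover the spread among libraries, part of which may be technical. All libraries share a single line.

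Membranous nephropathy is a kidney disease in which antibodies bind proteins on the outer side of the glomerular capillary wall, beneath the podocytes, and immune deposits build up there. PLA2R1, the phospholipase A2 receptor of the mannose receptor family, is the most common target in the primary form of the disease, and THSD7A, a large membrane protein with thrombospondin repeats, is a rarer one. NELL1 is a secreted protein linked to cases with tumours. PCDH7 (a protocadherin), HTRA1 (a secreted serine protease) and NTNG1 (netrin G1, a lipid-anchored membrane protein) were later additions. EXT1 and EXT2, the enzymes that together polymerise heparan sulfate, and NCAM1, a neural cell adhesion molecule, mark cases with lupus or similar autoimmunity, while CNTN1 (contactin 1) is a target where the peripheral nerves are attacked as well.

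Promoter windows are shown for the antigen genes whose RNA fell (PLA2R1, HTRA1) and for those that rose most (PCDH7, CNTN1), as they are the upstream regions of the genes on which the comparison turns. Each window runs from 250 bases before to 50 bases after an annotated start, is taken from RefSeq on GRCh38.p14 and reads 5′ to 3′ on the strand of the gene. Capitals mark CANNTG, the E-box to which helix-loop-helix proteins as a class bind, which reads the same on both strands. CNTN1 has 2 annotated starts, both shown.
PLA2R1 chr2:160062566-160062865 (-): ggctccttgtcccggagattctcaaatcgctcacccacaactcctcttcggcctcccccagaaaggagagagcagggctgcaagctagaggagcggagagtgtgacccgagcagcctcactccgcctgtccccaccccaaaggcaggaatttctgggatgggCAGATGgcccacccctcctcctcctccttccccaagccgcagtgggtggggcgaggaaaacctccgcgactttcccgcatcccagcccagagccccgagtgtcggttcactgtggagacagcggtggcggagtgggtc
HTRA1 chr10:122461303-122461602 (+): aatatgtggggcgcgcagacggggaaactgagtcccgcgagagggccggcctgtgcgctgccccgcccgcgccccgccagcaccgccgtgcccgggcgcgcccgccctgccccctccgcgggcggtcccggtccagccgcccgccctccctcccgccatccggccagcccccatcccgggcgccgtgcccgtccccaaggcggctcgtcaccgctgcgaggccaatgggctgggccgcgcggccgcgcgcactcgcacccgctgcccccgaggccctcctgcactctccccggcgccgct
PCDH7 chr4:30720119-30720418 (+): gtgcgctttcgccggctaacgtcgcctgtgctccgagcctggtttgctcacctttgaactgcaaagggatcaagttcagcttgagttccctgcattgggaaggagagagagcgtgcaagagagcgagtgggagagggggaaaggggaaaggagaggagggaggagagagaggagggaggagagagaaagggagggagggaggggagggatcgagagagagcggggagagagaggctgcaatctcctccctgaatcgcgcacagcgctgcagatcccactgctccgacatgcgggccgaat
CNTN1 chr12:40827934-40828233 (+): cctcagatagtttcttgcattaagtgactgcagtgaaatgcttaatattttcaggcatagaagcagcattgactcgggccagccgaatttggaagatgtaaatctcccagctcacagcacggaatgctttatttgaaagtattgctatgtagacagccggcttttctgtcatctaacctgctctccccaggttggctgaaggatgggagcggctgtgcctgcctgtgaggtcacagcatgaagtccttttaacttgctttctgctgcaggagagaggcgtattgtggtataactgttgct
CNTN1 chr12:40908107-40908406 (+): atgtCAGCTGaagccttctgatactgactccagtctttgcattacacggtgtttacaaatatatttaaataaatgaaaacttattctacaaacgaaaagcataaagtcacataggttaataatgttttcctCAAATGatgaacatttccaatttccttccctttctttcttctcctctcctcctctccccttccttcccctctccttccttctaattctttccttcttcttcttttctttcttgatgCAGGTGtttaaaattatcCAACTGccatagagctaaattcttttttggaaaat

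The table held 12 windows for 7 of the antigen genes, and EXT1, NCAM1 and NELL1 had none. CANNTG was found in 6 of the 12 windows, against 68.7% of all 35116 windows. The windows are not independent: those of EXT2 that start at 44095947 and 44095948 are nearly the same sequence, and their shared CACCTG is counted in both. The PLA2R1 window held 1 copy (CAGATG), the windows of HTRA1 and PCDH7 held 0, and those of CNTN1 held 0 and 4. THSD7A, whose window is not shown, had 3 copies. These are matches of letters in a short window and do not show binding by ATOH8.

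Total counts ran from 23229160 to 25277868 in ATOH8 knockdown libraries and from 21108695 to 27109043 in control libraries. CPM below stands for counts per 1000000 counts, scaled by TMM. ATOH8 was lower in every knockdown library, with 51, 71, 61 and 53 counts, than in any control library, with 175, 160, 122 and 128 counts (log2 change -1.26, SE 0.127, edgeR adjusted p = 1.78e-09), so its level matched the labels. Of the podocyte markers, WT1, PODXL, SYNPO, TCF21, KIRREL1, CD2AP, PLCE1 and VEGFA had enough counts to test, whereas NPHS1 (nephrin), PTPRO and CLIC5 stayed under 10 counts in each library. The label "podocyte" therefore rests on part of the marker set in these cells. Summed over the 13 podocyte markers, levels were 850 to 898 CPM in knockdown and 1011 to 1045 CPM in control libraries. KIRREL1 made up most of these sums, with a mean of 489 CPM in knockdown and 626 CPM in control libraries. Of the 8 tested markers 3 rose and 3 fell, beside 25.2% higher and 25.9% lower among all genes tested. Among those that fell, PODXL lost its call without knockdown replicate 3 (log2 change -0.20, edgeR adjusted p = 0.0679).

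Of the 10 antigen genes, 8 had enough counts to test. Among these, 4 rose in ATOH8 knockdown (CNTN1, PCDH7, NCAM1 and EXT1), 2 fell (PLA2R1 and HTRA1), and EXT2 and NTNG1 did not pass the test. THSD7A and NELL1 were too low. Of all 16884 genes tested with edgeR, 51.1% passed the threshold of an adjusted p under 0.05, 25.2% as higher and 25.9% as lower, beside 75.0% of the 8 antigen genes, so that calls were common throughout these data. The antigen genes did not overlap between the groups in 5 of 8 cases (CNTN1, PCDH7, NCAM1, EXT1 and PLA2R1), against 45.6% of all genes tested. Changes of at least 1.5-fold past the threshold were found for 3 of the 8 (CNTN1, PCDH7 and PLA2R1), against 10.9% of all genes tested. The median absolute log2 change was 0.27 for the 8 antigen genes and 0.19 for all genes tested. Nothing is read from these shares, because the antigen genes were chosen with earlier results of these data known.

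**Figure D1:**
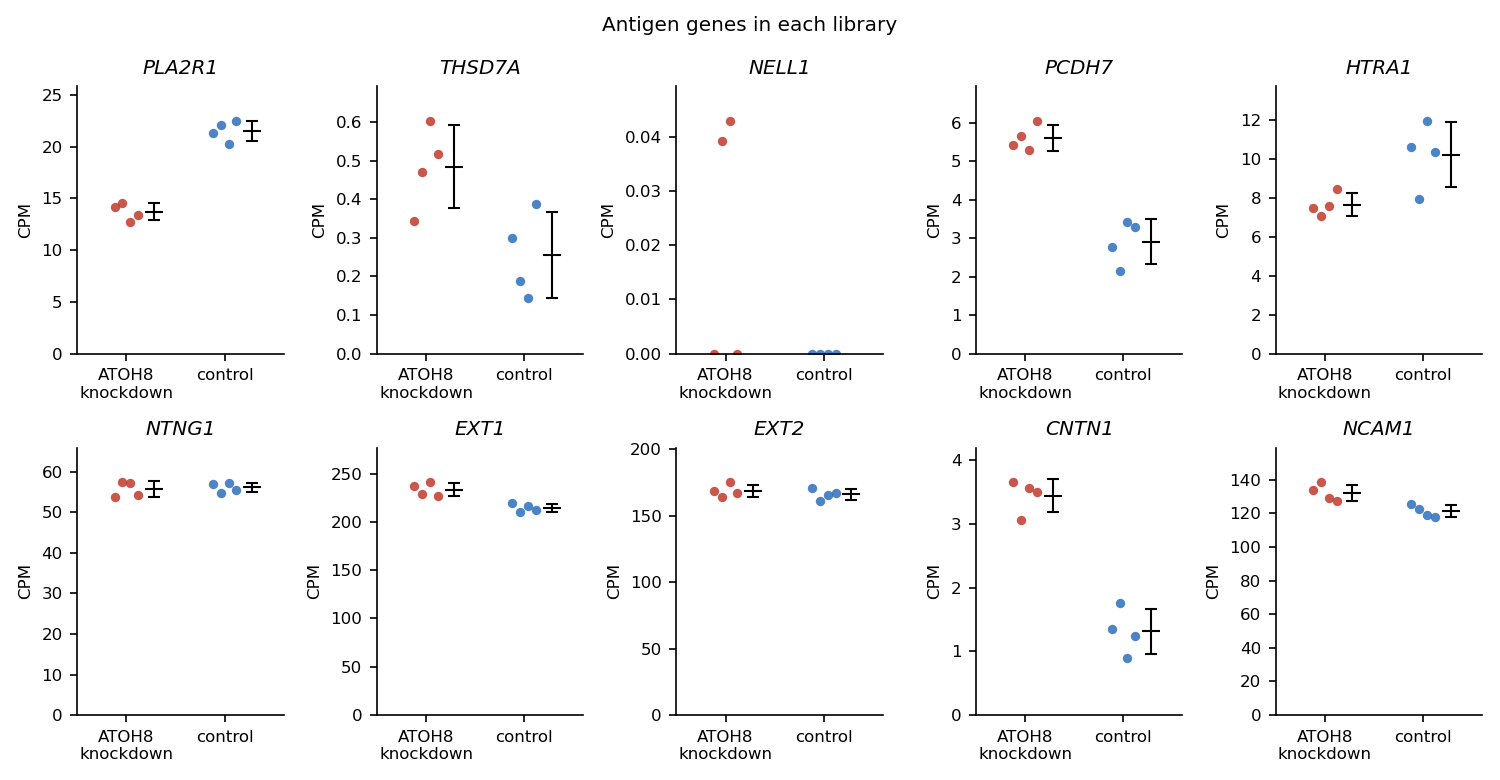
Levels of the 10 antigen genes in CPM (counts per 1000000), 1 panel per gene, with ATOH8 knockdown libraries left and control libraries right. Points are libraries (n = 4 per group), and the black mark with bars is the mean ± SD, left out for NELL1, which had 2 counts in all; PLA2R1 lies lower, and PCDH7 and CNTN1 higher, in every knockdown library than in any control library.

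The antigen genes differed in level over several orders of magnitude, and their order was compared per exon length, in TPM (counts per exon base, scaled to sum to 1000000 in each library). EXT2 and EXT1 stood at the top with 126 ± 2.18 and 111 ± 2.43 TPM in knockdown, against 121 ± 1.73 and 99.6 ± 1.39 TPM in control libraries (SD, n = 4). In control libraries they lay above 93.9% and 92.1% of protein-coding genes. NCAM1 followed with 41.0 ± 1.82 TPM in knockdown and 36.8 ± 0.833 TPM in control libraries, and NTNG1 with 24.1 ± 0.789 TPM in knockdown and 23.7 ± 0.478 TPM in control libraries. HTRA1 had 13.3 ± 1.03 TPM in knockdown and 17.3 ± 2.83 TPM in control libraries.

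PLA2R1, the major antigen of the disease, was the sixth in this order, with 3.53 ± 0.240 TPM in knockdown and 5.43 ± 0.252 TPM in control libraries, where it lay above 46.3% of protein-coding genes. PCDH7 and CNTN1 lay lower. PCDH7 had 1.81 ± 0.119 TPM in knockdown and 0.917 ± 0.187 TPM in control libraries, and CNTN1 had 1.82 ± 0.130 TPM in knockdown and 0.678 ± 0.185 TPM in control libraries. THSD7A came next with 0.175 ± 0.0376 TPM in knockdown and 0.0898 ± 0.0386 TPM in control libraries. Among neighbours in the order, only the ranges of PCDH7 and CNTN1 overlapped, in both groups. EXT1 and EXT2 together made up 72.6% to 74.2% of the summed TPM of the 10 genes in knockdown and 71.8% to 72.6% in control libraries.

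**Figure D2:**
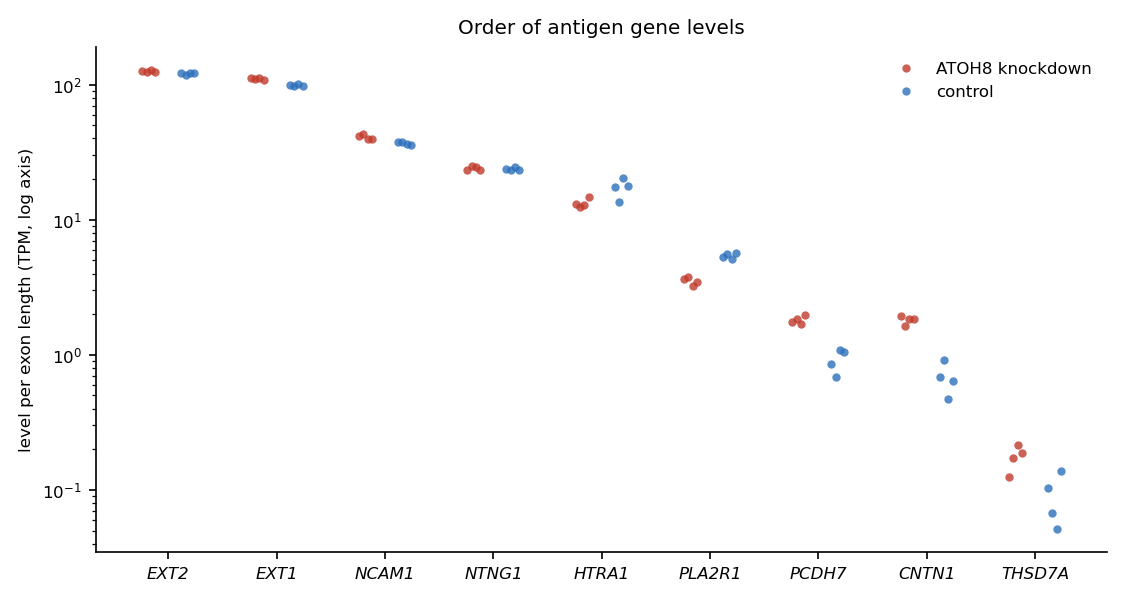
Level per exon length (TPM, log axis) of 9 antigen genes, ordered by their mean in control libraries, with ATOH8 knockdown libraries left and control libraries right of each gene's mark. Points are libraries (n = 4 per group); NELL1 is left out because it had 0 counts in 6 of 8 libraries, and the order runs from EXT2 at 121 TPM to THSD7A at 0.0898 TPM in control libraries.

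PLA2R1 (ENSG00000153246.13, chromosome 2) fell. It had 330, 370, 296 and 337 counts in knockdown libraries, against 570, 589, 427 and 580 in control libraries. Scaled to library size these were 14.2, 14.5, 12.7 and 13.4 CPM in knockdown and 21.4, 22.1, 20.3 and 22.5 CPM in control libraries. Every knockdown library lay below every control library, and the highest knockdown value was well under the lowest control value. The mean was 13.7 ± 0.802 CPM in knockdown and 21.6 ± 0.971 CPM in control libraries (SD, n = 4). The fitted level in knockdown was 63.6% of that in control libraries (95% interval of the fold 0.584 to 0.692). The log2 change was -0.65 (SE 0.0598, edgeR adjusted p = 2.69e-10), and the exact two-sided permutation test gave p = 0.0286, below which this design cannot go. In bulk RNA, fewer cells carrying the transcript and less RNA per cell cannot be told apart.

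HTRA1 (ENSG00000166033.13, chromosome 10), the secreted protease, fell by a smaller amount. Its values were 7.48, 7.07, 7.58 and 8.48 CPM in knockdown libraries, against 10.6, 7.96, 11.98 and 10.4 CPM in control libraries. The groups overlapped, because control replicate 2 lay below knockdown replicate 4. The log2 change was -0.41 (SE 0.102, edgeR adjusted p = 0.00157), while the exact two-sided permutation test gave p = 0.0571. When single libraries were left out the log2 change ran from -0.52 to -0.34, and the call held in each of these fits (largest edgeR adjusted p = 0.00926). The coefficient of variation was 7.76% in knockdown libraries and 16.3% in control libraries, beside medians of 7.74% in knockdown and 7.33% in control libraries for 841 genes of like level.

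PCDH7 (ENSG00000169851.15, chromosome 4), a protocadherin that joins cells through its extracellular cadherin repeats, nearly doubled. Counts were 126, 144, 123 and 152 in knockdown libraries, against 74, 57, 72 and 85 in control libraries. These correspond to 5.42, 5.66, 5.29 and 6.05 CPM in knockdown and to 2.77, 2.14, 3.42 and 3.30 CPM in control libraries. All knockdown values lay above all control values. The fold was 1.94 (95% interval 1.62 to 2.33) and the log2 change 0.96 (SE 0.128, edgeR adjusted p = 3.32e-07), with an exact permutation p of 0.0286.

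CNTN1 (ENSG00000018236.15, chromosome 12), an immunoglobulin-superfamily protein of axons at the nodes of Ranvier, had the largest change of the 8 tested antigen genes. It had 85, 78, 83 and 88 counts in knockdown libraries, against 36, 47, 19 and 32 in control libraries. The scaled values were 3.66, 3.06, 3.57 and 3.50 CPM in knockdown and 1.35, 1.76, 0.903 and 1.24 CPM in control libraries. The groups stood apart. The coefficient of variation was 7.66% in knockdown libraries and 26.99% in control libraries. Medians for 627 genes of like level were 14.6% in knockdown and 13.9% in control libraries. The fold was 2.58 (95% interval 2.02 to 3.30) and the log2 change 1.37 (SE 0.172, edgeR adjusted p = 1.05e-07), with an exact permutation p of 0.0286.

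NCAM1 (ENSG00000149294.16, chromosome 11) and EXT1 (ENSG00000182197.11, chromosome 8) rose by small amounts. NCAM1 had 134, 138, 129 and 127 CPM in knockdown libraries, against 126, 123, 119 and 118 CPM in control libraries. The lowest knockdown value was just above the highest control value. Its fold was 1.09 (95% interval 1.04 to 1.14, log2 change 0.12, SE 0.0346, edgeR adjusted p = 0.00348). EXT1 had 237, 229, 241 and 227 CPM in knockdown libraries, against 220, 210, 216 and 212 CPM in control libraries, again without overlap. Its fold was 1.09 (95% interval 1.04 to 1.14, log2 change 0.12, SE 0.0314, edgeR adjusted p = 0.00195). An antisense transcript, NCAM1-AS1, shares 552 exon bases with NCAM1 and another, AP000802.1, 151 bases; their rows held 12 and 112 counts in knockdown and 5 and 116 in control libraries, against 12836 and 12156 for NCAM1, and the kit keeps strand, but whether the counting used it is not stated.

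EXT2 and NTNG1 did not pass the test, and their intervals were narrow. EXT2 (ENSG00000151348.14, chromosome 11) had 169, 164, 175 and 167 CPM in knockdown libraries, against 171, 161, 166 and 167 CPM in control libraries, and the groups lay on top of each other. Its fold was 1.01 with a 95% interval of 0.969 to 1.06 (edgeR adjusted p = 0.615). NTNG1 (ENSG00000162631.18, chromosome 1) had 53.9, 57.4, 57.4 and 54.2 CPM in knockdown libraries, against 57.1, 54.7, 57.2 and 55.6 CPM in control libraries. Its fold was 0.993 with a 95% interval of 0.940 to 1.05 (edgeR adjusted p = 0.846), and its log2 change of -0.010 turned to 0.0046 without knockdown replicate 1 and to 0.0027 without knockdown replicate 4.

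THSD7A and NELL1 were at or near the limit of detection. THSD7A (ENSG00000005108.16, chromosome 7) had 8, 12, 14 and 13 counts in knockdown libraries, against 8, 5, 3 and 10 in control libraries. Knockdown replicate 1 lay below control replicate 4 in CPM (0.344 against 0.388), so the groups overlapped. The summed counts of 47 in knockdown and 26 in control libraries gave a ratio of 1.86 with an exact 95% interval of 1.13 to 3.14, which covers counting error only. The exact two-sided permutation test over libraries gave p = 0.0571, and edgeR without a filter on low counts gave an adjusted p of 0.106. In edgeR fits that left out a library THSD7A passed the filter in 5 of 8 and the threshold in 2 of them, without knockdown replicate 1 (adjusted p = 0.0316) and without control replicate 4 (adjusted p = 0.0209). In each of these 5 fits THSD7A passed the filter only through the knockdown group, so nothing is read from these 2 calls. NELL1 (ENSG00000165973.19, chromosome 11) had 1 count in each of knockdown replicates 2 and 3 and 0 in the other knockdown libraries, and 0 in all control libraries, where 3 counts over the group correspond to 0.0300 CPM. No difference in NELL1 was detectable at this depth.

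**Figure D3:**
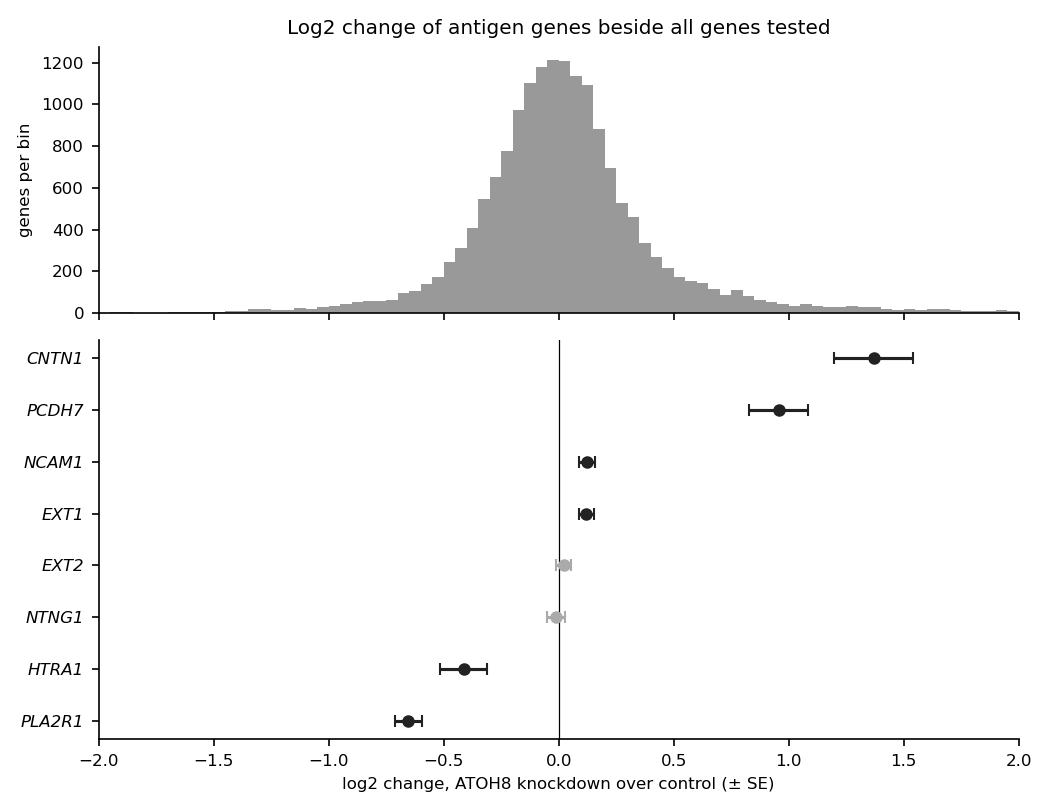
Upper panel, number of genes per bin of 0.05 in log2 change of ATOH8 knockdown over control for the 16884 genes tested, leaving out 162 genes beyond ± 2. Lower panel, log2 change ± SE of the 8 antigen genes tested, black where the edgeR adjusted p is under 0.05 and grey where it is not; CNTN1 (1.37) and PCDH7 (0.96) lie in the upper tail and PLA2R1 (-0.65) in the lower.

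EXT1 and EXT2 act as a complex, so their ratio was compared within each library. Per exon length the EXT1 to EXT2 ratio was 0.894, 0.887, 0.874 and 0.862 in knockdown libraries, against 0.817, 0.8291, 0.8290 and 0.808 in control libraries. All knockdown libraries lay above all control libraries (0.879 ± 0.0142 in knockdown and 0.821 ± 0.0101 in control libraries, SD, n = 4, exact permutation p = 0.0286, two-sided). The size of the ratio depends on the transcript length that is assumed, and with the longest transcript in place of all exons it was 0.578 in knockdown and 0.540 in control libraries. The log2 difference between the groups was 0.0992 with either length. It had to be the same, because the length scales the ratio alike in every library, so this is no check on the difference.

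Heparan sulfate, the product of EXT1 and EXT2, is a sulfated sugar chain carried on proteins of the cell surface and the basement membrane. Of 28 other tested genes that make or modify it, 8 were higher, 8 lower and 12 not past the test, beside 25.2% higher and 25.9% lower among all genes tested. Their median log2 change was -0.02, beside -0.00072 for all genes tested. They were sorted by step after their values had been seen. Of 7 genes that supply sugar and sulfate donors 5 fell, beside 25.9% of all genes tested, a count from which nothing is read because the steps were drawn with the values known. Among the 5 were UGDH, which makes UDP-glucuronic acid (42.3 ± 1.23 CPM in knockdown and 56.9 ± 1.38 CPM in control libraries, log2 change -0.42), and UXS1, which turns it into UDP-xylose (log2 change -0.29, SE 0.0332). PAPSS2, which makes the sulfate donor, fell as well (log2 change -0.13, SE 0.0324). In the linkage region, through which the chain is joined to its protein, the kinase FAM20B fell (log2 change -0.17, SE 0.0351), and XYLT2 and B3GALT6 rose.

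Among the relatives of EXT1 and EXT2, EXTL3, which adds the first glucosamine of the chain, rose (109 ± 4.81 CPM in knockdown and 96.6 ± 4.12 CPM in control libraries, log2 change 0.18, edgeR adjusted p = 0.000281), EXTL1 rose at a low level (log2 change 0.92, SE 0.214) and EXTL2 fell (log2 change -0.16, edgeR adjusted p = 0.0179, but 0.0646 by DESeq2, 0.0550 in edgeR without knockdown replicate 3 and 0.0574 without control replicate 4). Both sulfatases that remove 6-O-sulfate outside the cell rose. SULF1 had 5.78 ± 0.619 CPM in knockdown and 2.15 ± 0.112 CPM in control libraries (log2 change 1.42, SE 0.124), and SULF2 had 139 ± 2.72 CPM in knockdown and 82.2 ± 2.90 CPM in control libraries (log2 change 0.75, edgeR adjusted p = 6.89e-17). HS3ST3B1, a 3-O-sulfotransferase, rose too (log2 change 0.44, SE 0.0398), whereas NDST1, an N-deacetylase and N-sulfotransferase, did not pass (log2 change -0.04, SE 0.0328).

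**Figure D4:**
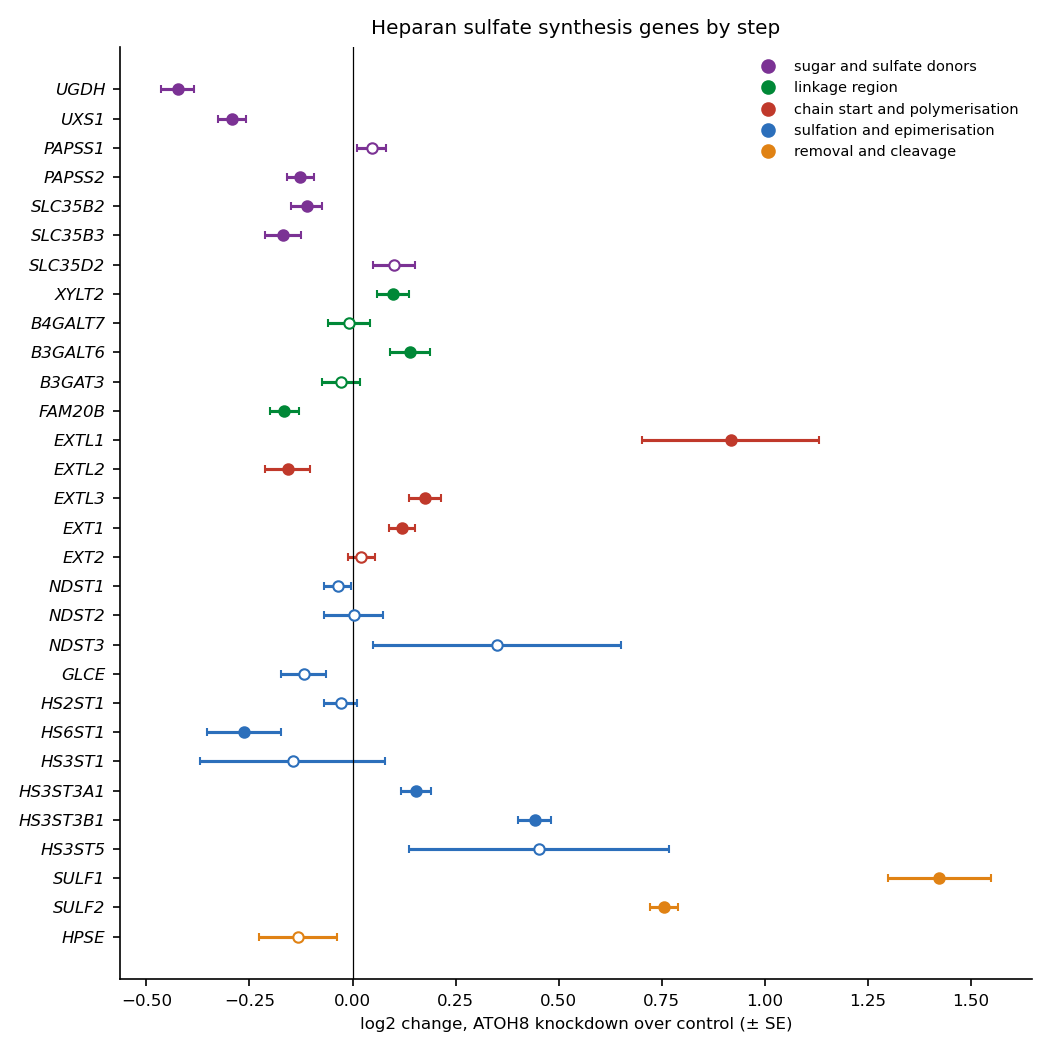
Log2 change ± SE of ATOH8 knockdown over control for 30 tested genes of heparan sulfate synthesis, EXT1 and EXT2 included, grouped by step in colour. Filled points passed an edgeR adjusted p of 0.05 and open points did not; SULF1 (1.42) and SULF2 (0.75) lie to the right and the donor genes UGDH (-0.42) and UXS1 (-0.29) to the left of zero.

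The proteins that carry heparan sulfate changed in both directions, with 5 of 12 tested core protein genes higher and 3 lower, beside 25.2% and 25.9% of all genes tested. GPC1, a glypican, rose to 261 ± 13.6 CPM in knockdown libraries, against 164 ± 2.91 CPM in control libraries (log2 change 0.67), and HSPG2, the basement membrane proteoglycan perlecan, rose to 803 ± 81.6 CPM in knockdown libraries, against 521 ± 41.2 CPM in control libraries (log2 change 0.62, edgeR adjusted p = 0.00117). The syndecans SDC1 (log2 change 0.20) and SDC3 (log2 change 0.11) rose as well. GPC4 fell to 17.5 ± 1.59 CPM in knockdown libraries, against 33.0 ± 1.42 CPM in control libraries (log2 change -0.91, SE 0.0577), as did GPC6 (log2 change -0.35) and the syndecan SDC4 (log2 change -0.28).

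Paralogs of the antigens moved in both directions, with 6 of 16 tested genes higher and 4 lower, beside 25.2% and 25.9% of all genes tested. By DESeq2, 4 were higher (PCDH10, PCDH1, EXTL3 and EXTL1) and 2 lower. In edgeR without control replicate 4, 2 were lower. Of the protocadherin relatives of PCDH7, PCDH10 rose (4.85 ± 0.259 CPM in knockdown and 2.11 ± 0.166 CPM in control libraries, log2 change 1.20, SE 0.128), while PCDH9 and PCDH17 did not pass. PCDH1 was called higher at a low level (log2 change 2.38, SE 0.363). With 15 to 21 counts in knockdown and 2 to 5 in control libraries, it passed the count filter only through the knockdown group, so nothing is read from its call. Of the other contactins, CNTN4 and CNTN6 were called higher at levels under 1 CPM (log2 changes 0.96 and 0.87, edgeR adjusted p = 0.0190 and 0.0116). Neither was among those called higher by DESeq2, and the groups overlapped for CNTN4. Control libraries alone would not have carried CNTN4 or CNTN6 through the count filter, so nothing is read from their calls. CNTN5 did not pass, and CNTN3 had no count. NCAM2, the relative of NCAM1, fell (3.43 ± 0.425 CPM in knockdown and 5.66 ± 0.186 CPM in control libraries, log2 change -0.72, SE 0.112). MRC2, an endocytic collagen receptor of the family of PLA2R1, fell (244 ± 8.19 CPM in knockdown and 282 ± 5.53 CPM in control libraries, log2 change -0.21), and LY75 of the same family did not pass. HTRA3 was at 0.470 ± 0.188 CPM in knockdown and 0.790 ± 0.207 CPM in control libraries. It passed the test of edgeR by a small margin (adjusted p = 0.0455), but not that of DESeq2 (adjusted p = 0.121). The edgeR call was also lost with no filter (adjusted p = 0.0668) and without knockdown replicate 1, 2 or 4 or control replicate 2, 3 or 4. The largest edgeR adjusted p was 0.187, without knockdown replicate 2. Knockdown libraries alone would not have carried HTRA3 through the count filter, so nothing is read from its call. HTRA2 and NTNG2 did not pass.

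Of 12 tested partners of NCAM1, CNTN1 and NTNG1, 9 were higher and 1 lower, beside 25.2% and 25.9% of all genes tested, with a median log2 change of 0.22. Nothing is read from this count, because the list was chosen with earlier results of these data known. The count of higher partners was 8 by DESeq2, with no filter and with at least 1 CPM in 4 libraries, and 7 to 9 in edgeR fits without single libraries (7 without knockdown replicate 1). PTPRZ1, a receptor phosphatase that binds CNTN1, rose to 9.58 ± 1.14 CPM in knockdown libraries, against 2.90 ± 0.326 CPM in control libraries (log2 change 1.72, SE 0.110, edgeR adjusted p = 1.42e-13). The adhesion molecule NRCAM rose with a log2 change of 0.54 (SE 0.0543), the kinase FYN, which acts downstream of NCAM1, with 0.42 (SE 0.0445) and the phosphatase PTPRF with 0.27 (SE 0.0321). FGFR1, a receptor that NCAM1 can engage, fell (132 ± 1.57 CPM in knockdown and 154 ± 2.44 CPM in control libraries, log2 change -0.21). LRRC4C, the ligand of netrin G1, was at 0.883 ± 0.124 CPM in knockdown and 0.549 ± 0.208 CPM in control libraries (log2 change 0.66, edgeR adjusted p = 0.0468). Its groups overlapped, and control libraries alone would not have carried it through the count filter, so nothing is read from its call. ST8SIA2, which adds polysialic acid to NCAM1, had no count, and ST8SIA4 did not pass.

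Of 16 further proteins reported as antigens in membranous nephropathy, 14 were tested, 8 rose and 2 fell, beside 25.2% and 25.9% of all genes tested. Their median log2 change was 0.29. Nothing is read from this count, because this list too was chosen with earlier results of these data known. SEMA3B, a semaphorin known as an antigen in children, rose to 63.9 ± 2.25 CPM in knockdown libraries, against 41.6 ± 1.72 CPM in control libraries (log2 change 0.62, SE 0.0413). TGFBR3, the betaglycan co-receptor, rose to 17.7 ± 0.707 CPM in knockdown libraries, against 9.85 ± 0.784 CPM in control libraries (log2 change 0.85, SE 0.0682). MME, the neutral endopeptidase of antenatal membranous nephropathy, rose by less, with 234 ± 10.03 CPM in knockdown and 201 ± 4.63 CPM in control libraries (log2 change 0.22). FCN3, a lectin of the complement system, had 20, 20, 20 and 22 counts in knockdown libraries, against 0, 0, 0 and 1 in control libraries. FCN3 is among the 8 that rose, but it passed the count filter only through the knockdown group, so nothing is read from its call. Its ratio of summed counts was 84.6 with an exact 95% interval of 14.8 to 3381, for counting error only. It rests on 1 control count, and the log2 change fitted by edgeR ran from 5.50 to 7.38 when single libraries were left out, the highest value being that without control replicate 4, which held that count. AKR1B1, the intracellular aldose reductase, fell (787 ± 34.8 CPM in knockdown and 1225 ± 33.6 CPM in control libraries, log2 change -0.64). SOD2, the mitochondrial superoxide dismutase, fell as well (2049 ± 84.95 CPM in knockdown and 2930 ± 61.4 CPM in control libraries, log2 change -0.52). ENO1 and EEA1, also intracellular, did not pass (log2 changes 0.06 and 0.03, edgeR adjusted p = 0.114 and 0.656).

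Markers of other cell types were examined beside these changes, because several antigens are neural proteins. Each count below stands beside 25.2% higher and 25.9% lower among all genes tested. Of the neural and Schwann cell markers 6 of 11 were tested, of which 1 rose and 2 fell, and their summed level was 110 to 118 CPM in knockdown and 110 to 117 CPM in control libraries. TUBB3, which did not pass, made up most of that sum, with a mean of 97.0 CPM in knockdown and 93.7 CPM in control libraries. SOX10, S100B and STMN2 stayed under 10 counts in every library. Of 7 tested mesangial and pericyte markers 6 rose and 1 fell, with a summed level of 345 to 377 CPM in knockdown and 153 to 162 CPM in control libraries, although ITGA8 and GATA3 stayed under 10 counts. Of 6 tested endothelial markers 5 rose (49.4 to 53.4 CPM in knockdown and 29.3 to 33.2 CPM in control libraries), with EMCN at 0 and PECAM1, KDR and ERG under 10 counts. EHD3 made up most of that sum, with a mean of 34.8 CPM in knockdown and 24.7 CPM in control libraries. Of 9 parietal epithelial markers 5 rose and 2 fell (summed level 2432 to 2515 CPM in knockdown and 2236 to 2283 CPM in control libraries). Of 4 tested proximal tubule markers 3 rose and 1 fell (136 to 144 CPM in knockdown and 94.3 to 110 CPM in control libraries), but the calls of GGT1 and CUBN were lost in edgeR, that of GGT1 without knockdown replicate 1 (adjusted p = 0.0512) or control replicate 2 (0.0614) and that of CUBN without control replicate 4 (0.0560). Of 5 tested leukocyte markers 2 rose and 1 fell (171 to 181 CPM in knockdown and 148 to 159 CPM in control libraries), the fall being that of CD74, which was lost without knockdown replicate 2 (edgeR adjusted p = 0.0819). Control libraries alone would not have carried TEK and VWF (endothelial), CUBN (proximal tubule), ITGAM (leukocyte) or SNAP25 (neural), all called higher, through the count filter. Knockdown libraries alone would not have carried RBFOX3 (neural), called lower, through it. Nothing is read from the calls of these genes. The part of any of these cell types in the changes of the antigen genes was not tested.

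The genes whose library-by-library pattern was most like that of an antigen gene were sought among 11974 others whose log2 CPM averaged 2 or more, by the root-mean-square difference of centred log2 CPM over 8 libraries. For PLA2R1 they were ECHDC1 (0.037), LIG4 (0.048) and PSG5 (0.055). For CNTN1 they were SYTL1 (0.12), MFAP5 (0.16) and AFF3 (0.165), and for PCDH7 they were HOXD10 (0.094), GRHL3 (0.11) and GDA (0.15). HTRA1 was closest to PPIL3 (0.095), NTNG1 to CD274 (0.018), EXT1 to RPN1 (0.014), EXT2 to TBL1X (0.015) and NCAM1 to UBAP2 (0.023). The 8 libraries fall into 2 groups, so likeness in this measure includes the difference between them.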

How the data were processed

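Polyadenylated RNA had been sequenced from 8 libraries. The authors deposited whole-number counts per gene, which were used as raw counts. FastQC, STAR, featureCounts, DESeq2 and the build hg19 are listed, without versions or roles, per the submitters' processing notes. The annotation and strand setting are not stated. Of 60609 rows, 1 with a missing cell and 44 pseudoautosomal copies, all without counts, were left out. Gene IDs were matched without version to a names table (60295 symbols) and GENCODE release 29 (250), whose exons (GRCh38) gave the lengths for TPM; no coordinates of the deposited files were used.

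Genes were filtered with filterByExpr, scaled by TMM and compared with the quasi-likelihood test of edgeR 4.0.16 in R 4.3.3, with Benjamini-Hochberg adjustment over all genes tested and robust dispersions. The SE was derived from the F statistic. DESeq2 1.42.0 served as an alternative, beside other scaling, other filters, a replicate block and the omission of each library. Antigen genes and lists were chosen with earlier results of these data known. Named were all antigen genes, up to 4 rising and 4 falling genes per list by adjusted p, tested paralogs and the 3 genes most alike in pattern, without genes of the Y chromosome. Genes named beyond that rule (WT1, TCF21, TUBB3, VWF, XYLT2, B3GALT6, NDST1, LRRC4C, ST8SIA4, ENO1, EEA1 and untested genes) were chosen after their values were seen. No pair of libraries within a group agreed within sampling noise (chi-square per gene 1.95 to 4.48). The values of some single marker genes are not reported here. Intervals on ratios of counts cover counting error only.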

Additional observations from a re-analysis of the deposited data

Results flagged for a closer look

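In 89 groups of 4 libraries, values were examined for a library far from the others, among the antigen genes, ATOH8 and the genes of the non-marker lists that the naming rule chose. Chance alone singles out about 1 in 20 groups. None of the 10 antigen genes had such a library. Such a library was found in 4 groups. Control replicate 3 stood apart for SOD2 (2839 CPM, against 2948 to 2968 CPM in the other control libraries), for HS3ST3B1 (43.8 CPM, against 47.8 to 48.5 CPM) and for UXS1 (138 CPM, against 130 to 131 CPM). For FCN3, control replicate 4 was the only control library with a count (0.0388 CPM).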

How the results depend on the processing

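The calls of the 6 antigen genes kept their direction and their side of the threshold under all alternatives run: DESeq2 size factors, the DESeq2 Wald test, no filter, a stricter filter, the replicate block and the omission of each library. Without single libraries, antigen genes called higher numbered 4 to 5, the fifth being THSD7A, and called lower 2 in each fit. THSD7A passed the count filter in those fits only through the knockdown group, so nothing is read from its call. NTNG1, not called in any of these fits, turned sign between -0.025 and 0.0046 (log2) when single libraries were left out. Among paralogs, 2 were called lower by DESeq2 and 2 to 4 without single libraries (2 without control replicate 4), against 4. Called higher were 4 by DESeq2, 3 with at least 1 CPM in 4 libraries and 5 to 6 without single libraries, against 6. A stricter filter tests fewer genes, and the cause of the other shifts was not tested. With the replicate block 8802 genes were called, against 8625 without it, and 4 antigen genes were higher and 2 lower with it. Libraries of the same number did not deviate together throughout (correlations 0.052, 0.12, -0.030 and 0.098), so the number was not taken as a pairing. With the longest transcript in place of all exons, the control level of EXT1 was 75.6 TPM and that of NCAM1 58.4 TPM, and the order of the 10 genes in control libraries was the same. Depth limits THSD7A and NELL1, which had at most 14 counts in a library.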
